A study of Homo sapiens with 3 samples.

Results

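The genes examined here encode 9 molecules by which leukocytes attach to and cross the vessel wall: ICAM1, ICAM2, ICAM3, VCAM1, SELE, SELP, MADCAM1, ALCAM and CD99. They were found by symbol, and all 9 were present among the 20037 protein-coding genes placed on the chromosomes of the peak list. The cells were of the line hCMEC/D3, made by immortalizing endothelium of small human brain vessels, and were grown on collagen until confluent; the labels name no cytokine or other treatment, and no second condition. Accessibility was measured by ATAC-seq, in which the Tn5 transposase inserts adapters into open chromatin, in 1 library labelled replicate 2. There was 1 ATAC library, so no value below has a replicate error and no test between groups could be made. The 2 RNA libraries of the series were not used, because no table used here links their transcript identifiers to genes.

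Leukocytes are slowed on the vessel wall by selectins, held by integrins that bind ICAM and VCAM proteins, and then pass between endothelial cells with the help of junctional molecules such as CD99. In brain vessels at rest this traffic is low, and inflammatory cytokines raise several of these molecules through NF-kappaB, a transcription factor that binds DNA sites known as kappaB sites. E-selectin, VCAM-1 and ICAM-1 are the classical cytokine-induced members, while ICAM-2 is known as a constitutive endothelial protein, ICAM-3 as a leukocyte protein and MAdCAM-1 as the gut homing ligand.

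The sequences shown here are the stretches of 250 bases just before the RefSeq start of 6 of the genes (RefSeq, GRCh38.p14). In the first 4, capitals mark matches to kappaB-type motifs (GGG and CC parted by any 5 bases, which includes GGG, any 3 bases and TTCC; and GGAANTTCC; on both strands). ICAM1 had a peak over its start, MADCAM1 a peak beside it, and VCAM1 and SELE none within 1 kb. The stretches lie at chr19:10270870-10271119, plus strand for ICAM1, chr19:496236-496485, plus strand for MADCAM1, chr1:100719492-100719741, plus strand for VCAM1 and chr1:169734080-169734329, minus strand for SELE.
ICAM1: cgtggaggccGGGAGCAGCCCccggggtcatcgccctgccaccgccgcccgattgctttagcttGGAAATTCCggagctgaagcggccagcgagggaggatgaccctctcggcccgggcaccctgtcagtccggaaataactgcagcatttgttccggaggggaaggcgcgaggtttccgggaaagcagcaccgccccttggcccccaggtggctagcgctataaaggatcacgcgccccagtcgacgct
MADCAM1: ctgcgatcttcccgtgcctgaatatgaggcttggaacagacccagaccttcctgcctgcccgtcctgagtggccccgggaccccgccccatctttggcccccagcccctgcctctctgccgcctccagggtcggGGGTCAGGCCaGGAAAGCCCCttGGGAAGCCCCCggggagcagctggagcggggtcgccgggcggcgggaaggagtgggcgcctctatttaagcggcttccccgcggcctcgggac
VCAM1: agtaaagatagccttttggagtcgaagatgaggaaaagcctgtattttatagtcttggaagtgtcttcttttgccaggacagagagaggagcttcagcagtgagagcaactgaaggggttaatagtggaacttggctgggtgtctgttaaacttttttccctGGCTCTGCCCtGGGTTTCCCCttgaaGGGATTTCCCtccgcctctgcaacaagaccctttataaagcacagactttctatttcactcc
SELE: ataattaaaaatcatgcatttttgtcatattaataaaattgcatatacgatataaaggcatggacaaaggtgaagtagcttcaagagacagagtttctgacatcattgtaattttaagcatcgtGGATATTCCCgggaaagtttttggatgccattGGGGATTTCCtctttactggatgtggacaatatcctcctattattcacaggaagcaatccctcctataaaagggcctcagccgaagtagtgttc
In the next pair, capitals mark CpG dinucleotides, because the genes with and without a peak over the start differed in them. The stretch of ALCAM (chr3:105366659-105366908, plus strand) held 20 and that of SELP (chr1:169630125-169630374, minus strand) held 1.
ALCAM: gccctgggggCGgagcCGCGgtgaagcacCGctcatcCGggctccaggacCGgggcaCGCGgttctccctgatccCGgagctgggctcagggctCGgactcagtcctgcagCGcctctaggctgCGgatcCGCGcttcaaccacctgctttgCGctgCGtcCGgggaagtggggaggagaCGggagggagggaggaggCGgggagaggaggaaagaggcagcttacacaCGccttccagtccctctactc
SELP: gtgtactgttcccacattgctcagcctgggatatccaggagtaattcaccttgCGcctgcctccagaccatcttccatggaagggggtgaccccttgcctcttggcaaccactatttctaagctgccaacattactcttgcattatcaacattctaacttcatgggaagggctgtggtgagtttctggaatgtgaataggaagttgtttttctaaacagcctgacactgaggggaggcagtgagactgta

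Peaks were counted in each gene and 10 kb on either side, and placed at an end (within 1 kb of either gene end), inside the gene or in the flank. All 9 genes had at least 1 peak in this window, as did 89.8% of all protein-coding genes. An end peak was found at 6 of the 9 genes, ICAM1, ICAM2, ICAM3, MADCAM1, ALCAM and CD99, beside 72.8% of all protein-coding genes. VCAM1, SELE and SELP had none. When peaks under a fold of 4 were left out, 3 of the 9 (ICAM3, ALCAM and CD99) kept an end peak, beside 56.0% of all protein-coding genes. The 9 windows held 56 peaks, no peak falling in the windows of 2 genes: 9 at ends, 26 inside and 21 in the flanks. Their median length was 434 bp and their median pileup 24.2 tags, compared with 452 bp and 21.6 tags over the 106415 peaks of the list. The pileup is the value in tags that the peak caller reported for a whole broad peak, and it was not read as the height of a summit. Peaks at ends had medians of 774 bp and 53.2 tags, against 402 bp and 19.5 tags for inside peaks and 402 bp and 22.3 tags for flank peaks.

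**Figure D1:**
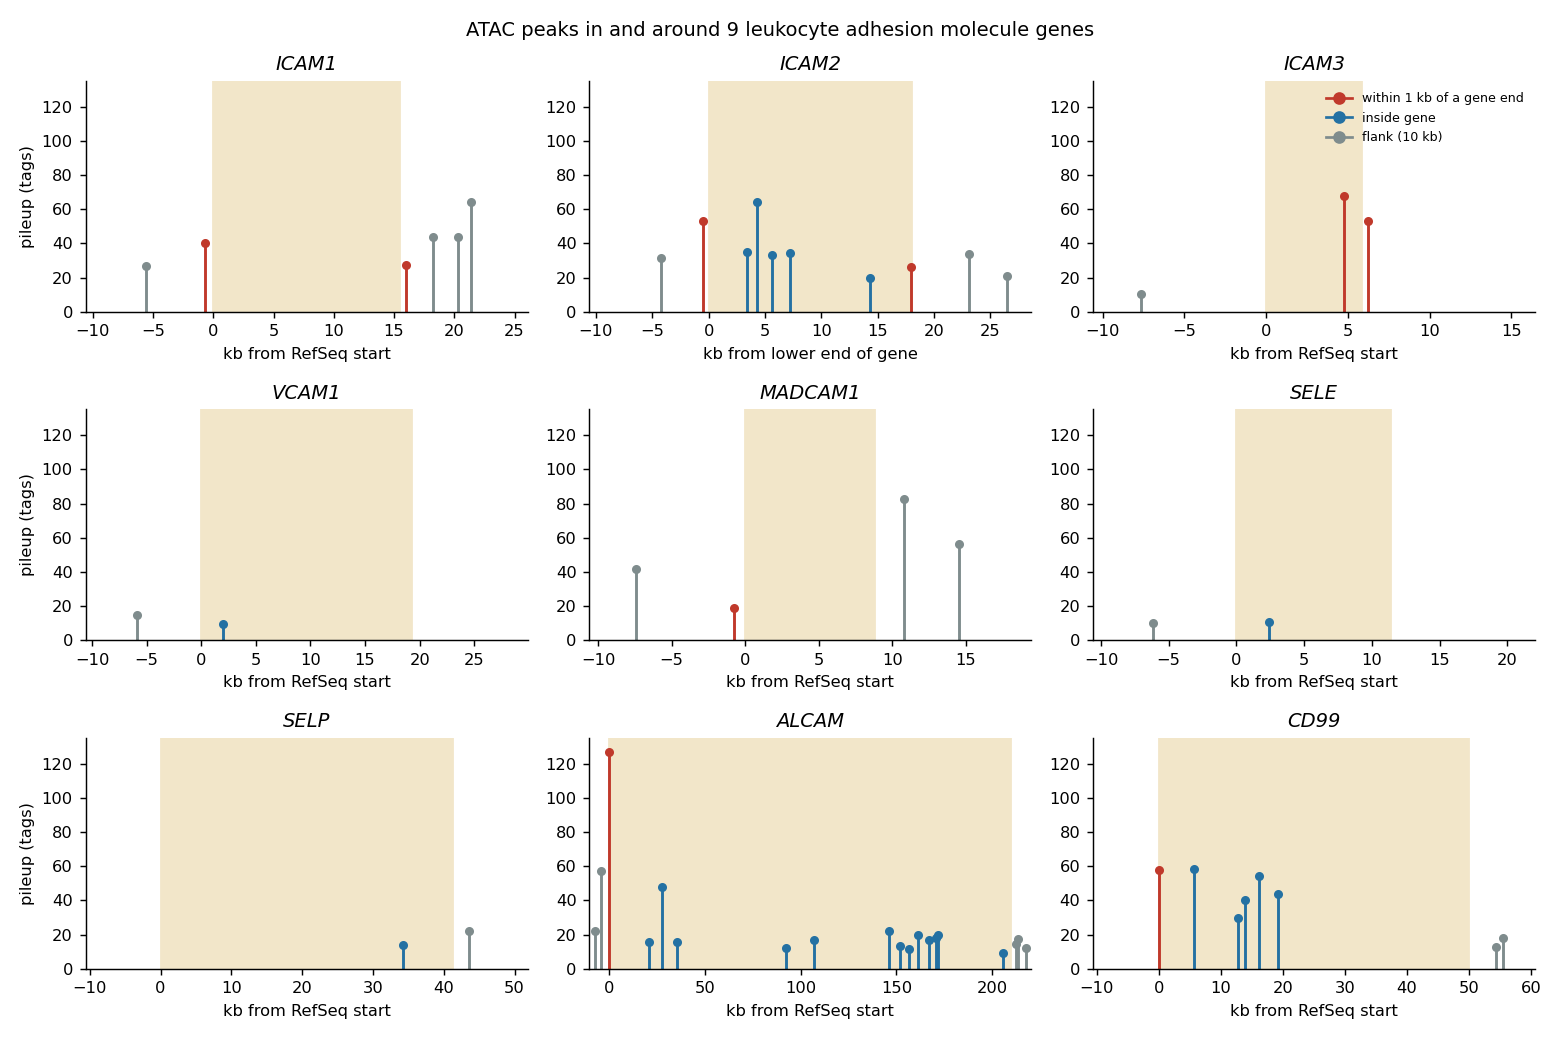
Each panel shows 1 gene, with the position of every peak in kb from the RefSeq start in the direction of transcription (for ICAM2 from the lower end of the gene) on the horizontal axis and its pileup in tags on the vertical axis; the shaded span is the gene. ALCAM carries the highest peak, 127 tags, over its start, while every peak of VCAM1, SELE and SELP is at or below 22.3 tags.

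The 3 ICAM genes encode ligands of leukocyte beta-2 integrins. ICAM1 had 6 peaks. The peak over its start (chr19:10269508-10271411) was 1904 bp long, the longest of the 56 and at percentile 99.2 of all peaks in length, with a pileup of 40.4 tags, percentile 79.9. It reached from 1612 bp before the start to 291 bp after it. No peak lay inside ICAM1 itself. The remaining peaks were 1 upstream, of 27.1 tags and 5434 bp from the start, and 4 beyond the other end of the gene, of 27.6, 43.6, 43.9 and 64.3 tags. The first of these 4 covered the start of ICAM4, the red cell ICAM, and the second lay within 1 kb of the start of ICAM5, the neuronal ICAM. The highest peak in the ICAM1 window therefore lay outside ICAM1, 21131 bp from its start.

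ICAM2 had 10 peaks, 2.63 per 10 kb of its window and the densest set among the 9 genes: 2 at ends, 5 inside and 3 in the flanks. The end peaks had 53.2 tags (chr17:64001780-64002468) and 26.1 tags (chr17:64020134-64020907). The inside peaks had 35.0, 64.3, 33.2, 34.3 and 19.6 tags, and the first 4 of them lay together between 3219 and 7416 bp from the lower end of the gene. No RefSeq start was matched for ICAM2, so its peaks were not placed by direction of transcription.

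ICAM3 had 3 peaks. Its 2 end peaks lay at the end opposite the outermost RefSeq start, with 53.3 tags (chr19:10332875-10333972) and 68.0 tags (chr19:10334568-10335199). The first also lay within 1 kb of an end of the neighbouring gene RAVER1, which encodes an RNA-binding protein. The second covered another RefSeq start of ICAM3, listed inside the gene. Around the outermost start no peak was called within 1 kb, and the nearest was 4425 bp downstream.

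VCAM1 and MADCAM1 encode ligands of alpha-4 integrins. VCAM1 had 2 peaks, 1 of 14.9 tags, 5715 bp upstream of the start (chr1:100713731-100714027), and 1 of 9.43 tags, 1934 bp inside the gene (chr1:100721676-100721875). The second was 200 bp long, the shortest length in the list, at percentile 2.84 of all peaks in pileup. MADCAM1 had 4 peaks. Its end peak, of 18.7 tags (chr19:495354-496066), stopped 420 bp short of the start, so it counted as an end peak without covering the start. The flank peaks had 42.0, 82.8 and 56.5 tags. That of 82.8 tags, the highest in the window, covered the start of TPGS1, a tubulin polyglutamylase subunit gene.

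The selectins bind sugar-bearing ligands on leukocytes during rolling. SELE had 2 peaks, 1 of 10.5 tags, 2238 bp inside the gene (chr1:169731569-169731841), and 1 of 10.1 tags, 5975 bp upstream (chr1:169740054-169740423). SELP had 2 peaks, of 14.1 tags (chr1:169595785-169596082) and 22.3 tags (chr1:169586304-169586687). The first lay 34042 bp into the gene and was the nearest to the SELP start, farther than the nearest peak of all but 7.65% of 15842 protein-coding starts. The second lay in the flank beyond the other end, where it covered the start of F5, the coagulation factor V gene. The lowest pileup called in the whole list was 8.0 tags, so the peaks of SELE and the inside peak of VCAM1 stood close to the limit of detection.

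ALCAM, which binds CD6 on T cells and itself on other cells, and CD99, which binds itself during passage between endothelial cells, each had a peak over the start. The peak over the ALCAM start (chr3:105366079-105366998) had 127 tags and a length of 920 bp. Its pileup ranked 36 among the 106415 peaks, and ALCAM ranked 9 among protein-coding genes by the pileup of its highest end peak. ALCAM had 13 further peaks inside its 209992 bp, of 9.43 to 48.1 tags. They were unevenly spread: 4 peaks, that over the start included, began in the first 40 kb, none between 40 and 90 kb, 2 between 90 and 140 kb, 7 between 140 and 175 kb, and the last at 205324 bp. The highest inside peak lay 27099 bp from the start and had a fold over local background of 8.48, the highest fold among the 56.

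CD99 lies in the pseudoautosomal region, which is shared by chromosomes X and Y, and was placed on X. No peak was called in the same window of Y, which cannot tell the chromosomes apart because the sequence is shared. The peak over its start (chrX:2690861-2691914) had 57.8 tags. It was followed by inside peaks of 58.4, 29.5, 40.0, 54.3 and 43.9 tags. All 6 began within 20 kb of the start, and no peak began in the remaining part of the gene, from 20 to 50 kb. The 2 flank peaks beyond the far end were lower, at 12.8 and 17.9 tags.

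Because longer genes hold more peaks, each gene was set against all protein-coding genes of 2/3 to 1.5 times its length, and its place is given as a percentile with ties at the middle rank. ICAM2, with 10 peaks against a median of 3 in 4112 genes, stood at percentile 99.6. ICAM1 (6 peaks, median 3) stood at percentile 90.2, CD99 (8, median 4) at 85.5, ALCAM (19, median 9) at 83.7 and MADCAM1 (4, median 3) at 74.0. ICAM3 had the median number, 3. Below the median were SELE (2, median 3) at percentile 33.6, VCAM1 (2, median 3) at 28.7 and SELP (2, median 4) at 21.8. This ranking depended on peaks of low fold: when peaks under a fold of 4 were left out, 1 of the 9 genes stood above the median, in place of 5. Such peaks were not all low in tags, since the ICAM1 flank peak of 64.3 tags had a fold of 3.96. With −log10 q of at least 5 the number stayed at 5.

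By the highest pileup in the window the 9 genes parted further. ALCAM stood at percentile 99.9 of genes of its length, MADCAM1 at 92.4, ICAM3 at 79.9, ICAM1 at 75.1, ICAM2 at 75.0 and CD99 at 64.0. SELP stood at 13.7 and SELE at 11.5, and VCAM1 was the lowest of the 9. The highest peak of VCAM1 had 14.9 tags, where genes of its length had a median of 49.0 tags and quartiles of 30.7 and 64.7. The same 3 genes were lowest in base pairs under peaks, with 497 bp for VCAM1 (median of similar genes 2252 bp), 643 bp for SELE (2046 bp) and 682 bp for SELP (2598 bp), against 5999 bp for ICAM2 (2208 bp). The highest pileups of MADCAM1 and ICAM1 came from peaks in the flank, that of MADCAM1 over the start of TPGS1.

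**Figure D2:**
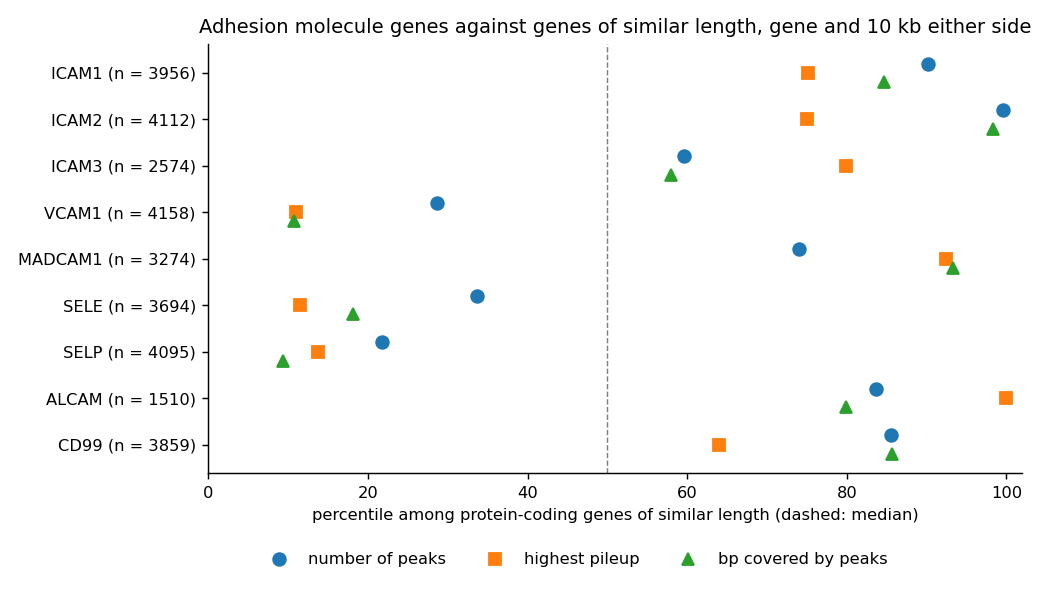
For each gene, the horizontal axis gives its percentile among protein-coding genes of similar length (their number in brackets) for the number of peaks, the highest pileup and the base pairs under peaks in the gene and 10 kb either side. VCAM1, SELE and SELP lie left of the dashed median on all 3 measures and have pileup percentiles of at most 13.7.

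A RefSeq start was matched for 8 of the genes, the outermost where several were listed, and a peak covered it in 3: ICAM1, ALCAM and CD99. Among all protein-coding genes with a start in the table, 65.2% had it covered. A peak within 1 kb of the start was found for 4 of the 8, MADCAM1 being the addition, compared with 72.0%. The genes differed in the composition of the 300 bases around the start, a feature that did not enter their choice. These held 24 CpG dinucleotides in ICAM1, 26 in ALCAM, 33 in CD99 and 20 in MADCAM1, but 7 in ICAM3, 5 in VCAM1, 4 in SELE and 1 in SELP. No start with 7 or fewer was covered, and of the 4 with 20 or more, 3 were covered. The ICAM3 result depended on the start used. Of its other listed starts, that with 19 CpGs lay under the peak of 68.0 tags, and that with 14 had no peak over it. Over all genes, the start was covered in 12.2% of those with 0 to 6 CpGs, 52.8% with 7 to 17, 86.7% with 18 to 26, 89.7% with 27 to 34 and 88.8% with 35 to 69. Among promoters within 2 CpGs of VCAM1, 18.0% were covered, and the shares were 14.5% for SELE, 8.65% for SELP, 26.1% for ICAM3 and 84.1% for MADCAM1. MADCAM1 was thus the 1 gene of the 4 with 20 or more CpGs that had no peak over the start. Its CpG number was slightly below the median of all promoters, 22. Its GC content, 69.3%, was above that of ICAM1, 64.7%, and ICAM3 had 65.0% GC with few CpGs, while SELE had 38.3%.

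**Figure D3:**
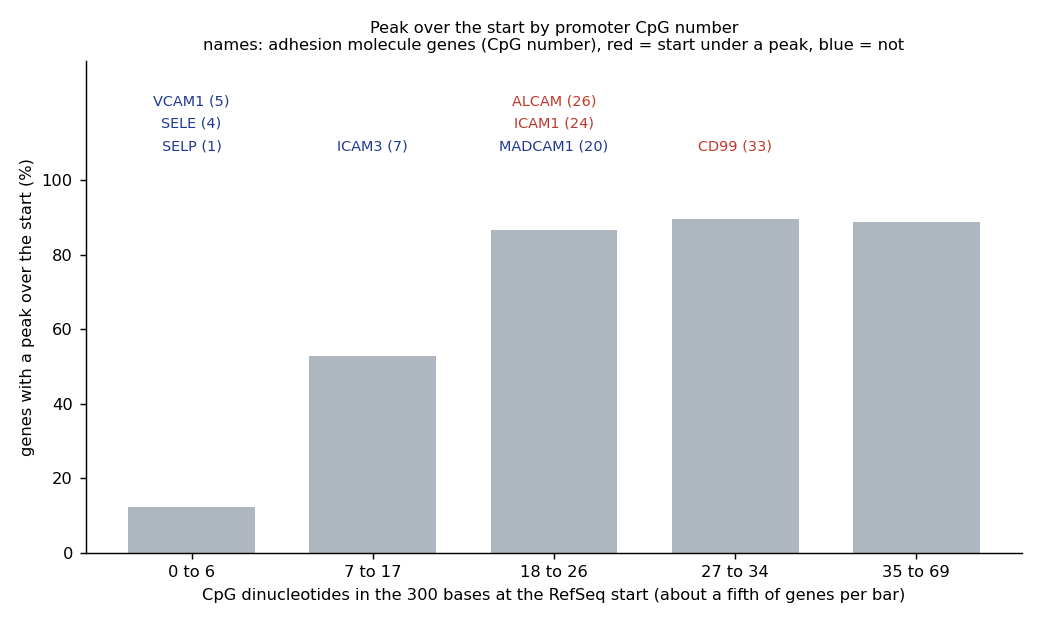
Bars give the share of protein-coding genes (vertical axis, %) with a peak over the RefSeq start, by the number of CpG dinucleotides in the 300 bases at the start (horizontal axis); the names above each bar are the 8 genes with a start, red where a peak covered it and blue where none did. SELP, SELE and VCAM1 fall in the class of 0 to 6 CpGs, where 12.2% of starts were covered.

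Matches to kappaB-type motifs were found both in genes whose start was covered and in genes where it was not. The motif GGAANTTCC was found in 1.0% of the 15842 promoters (1.12% of those with a covered start and 0.781% of the others) and, among the 8 genes, in ICAM1 alone, as GGAAATTCC at -186 to -178, counted in bases with -1 just before the start. The motif of GGG, any 3 bases and TTCC was found in 7.0% of promoters (7.82% and 5.46%) and in SELE, as GGGGATTTCC at -94 to -85, and MADCAM1, at -105 to -96 and -92 to -83 on the reverse strand. The looser motif of GGG and CC parted by any 5 bases was found in 67.4% of promoters (75.3% and 52.6%) and in all 8; in VCAM1 it matched GGGTTTCCCC at -77 to -68 and GGGATTTCCC at -62 to -53. The AP-1-type motif TGANTCA (5.7% of promoters), the CRE-type TGACGTCA (2.56%), the ETS-type ACCGGAAG (3.13%) and the GATA-type AGATAA (7.66%), each searched on both strands, were found in none of the 8. These are matches of letters in a window of 300 bases and do not show binding.

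The neighbourhoods of the genes also differed in local background, the tag density that the caller estimated around a peak from the same library within 10000 bp. With no control library, this density includes tags of the peak and of its neighbours. It is therefore not independent of the number and pileup of the peaks. All 6 peaks of VCAM1, SELE and SELP stood at the lowest value the caller allows, 2.37 tags, as did 35.2% of all peaks. That lowest value follows from the tags kept, the extension and the genome size given to the caller. The folds and q-values of these peaks therefore depend on the genome size that was set, 1870000000 bp. A larger genome size would lower this value and raise the folds of these peaks, and its effect on the calls was not tested. The median local background was 13.5 tags at ICAM1, 10.2 at ICAM2, 12.6 at ICAM3, 14.0 at MADCAM1 and 9.37 at CD99, compared with 3.32 over all peaks. ALCAM had a median of 3.8 tags over its 19 peaks, most of them far from its start, and 2 stood at the lowest value. Its start peak alone had a local background of 25.3 tags, the highest among the 56 peaks. The stretch of 68.5 kb from ICAM1 to ICAM3 on chromosome 19 holds 7 protein-coding genes and had 8 peaks, of 27.6 to 68.0 tags. A high background lowers the fold of a peak: the ICAM1 start peak had a fold of 3.49 at 40.4 tags, while the flank peak of SELP had 6.91 at 22.3 tags.

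The wider adhesion pathway was described through 43 further genes in 5 lists. An end peak was found at 42 of them, 97.7%, with a median pileup of 41.8 tags, beside the 72.8% of all protein-coding genes given above and their median of 45.7 tags. When peaks under a fold of 4 were left out, 23 of the 43 (53.5%) had an end peak beside 56.0% of all protein-coding genes, so the higher share was not seen under that filter. Of the 27 with a RefSeq start, a peak covered 22. All 11 genes for transmigration partners on endothelium had an end peak, highest at the junction gene CDH5 with 62.7 tags, NECTIN2 with 57.4 and PVR with 55.6. All 7 of the other ICAM family and selectin system genes had one, led by GLG1, a selectin ligand, with 57.3 tags and by ICAM4 and ICAM5, which shared a peak of 43.6 tags.

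Among 8 leukocyte counter-receptors, 7 had an end peak. ITGAL, which pairs with ITGB2 to bind ICAMs, had none, although its window held 6 peaks of up to 75.9 tags. The highest end peaks of this list were at ITGB1, an integrin chain of many cell types, with 74.5 tags, ITGB2 with 32.3 and ITGB7 with 24.4, and the list's median was 23.9 tags. All 8 linkers of adhesion molecule tails to actin had an end peak, highest at VCL with 88.1 tags, CTTN with 79.9 and ACTN4 with 67.8. The 9 genes of cytokine induction all had one as well, highest at JUN with 91.7 tags, ATF2 with 78.0 and IRF1 with 62.1. RELA and NFKB1, the NF-kappaB subunit genes, had 57.1 and 41.9 tags, and TNFRSF1A, a receptor for tumour necrosis factor, 55.1 tags. These end peaks were called in the same library in which VCAM1 and SELE had none.

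**Figure D4:**
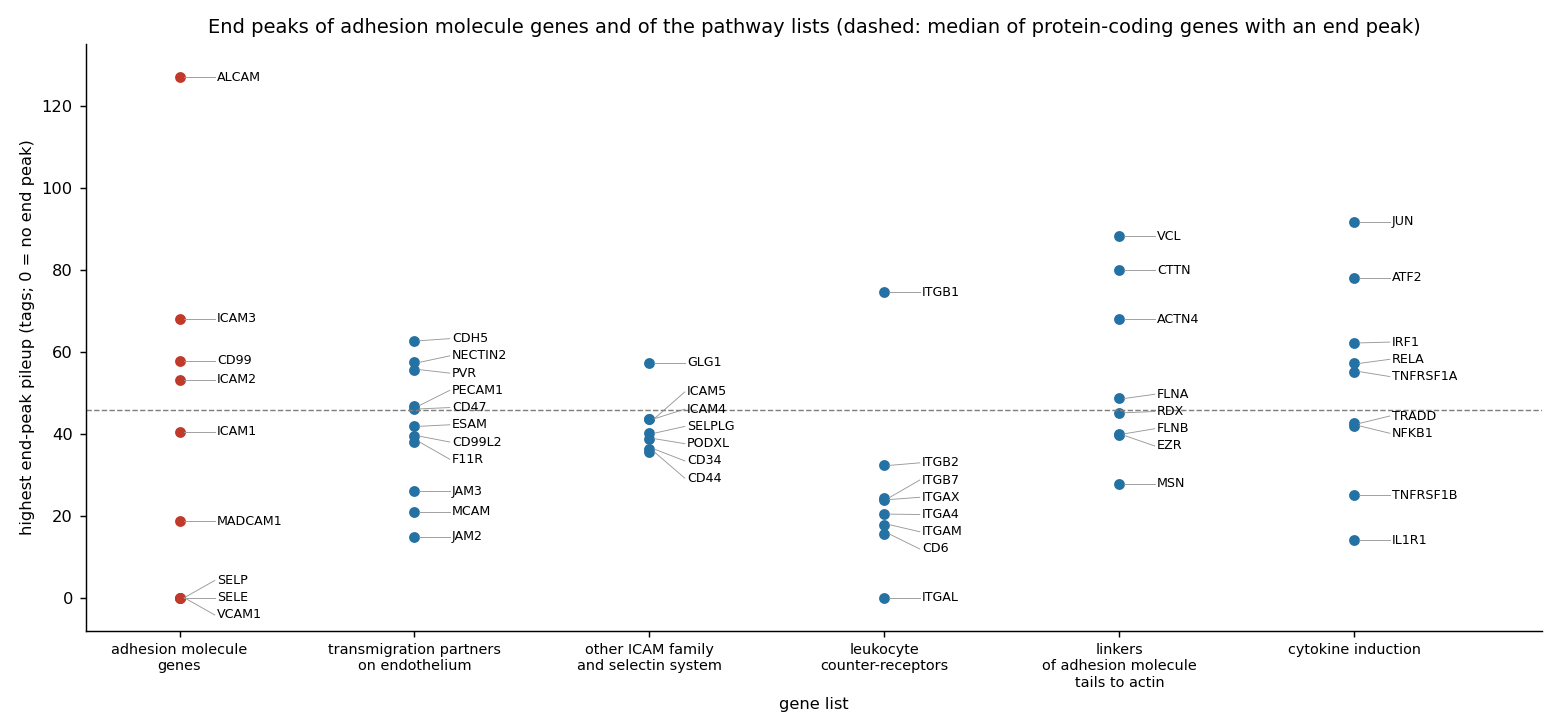
Each point is 1 gene, placed by list on the horizontal axis and by the pileup in tags of its highest end peak on the vertical axis, with 0 where no end peak was called; the dashed line marks 45.7 tags, the median over every protein-coding gene that had an end peak. VCAM1, SELE, SELP and ITGAL are the genes at 0.

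The labelled cell type was checked by the same counts. End peaks were called at 12 of 12 endothelial markers, 6 of 7 leukocyte markers, 4 of 4 mural markers and 4 of 5 glial and neuronal markers, and a peak covered the start in 4 of 7, 1 of 5, 4 of 4 and 3 of 4 of those with a RefSeq start. End peaks alone therefore did not tell the endothelial label from the others. Of the leukocyte markers, CD79A had no end peak, and the others had end peaks of 50.6 tags at LCK, 38.2 at SPI1, 33.1 at CD14, 28.5 at CD3E, 17.8 at ITGAM and 10.4 at PTPRC, which encodes CD45. AQP4, the astrocyte water channel gene, was the glial and neuronal marker without an end peak.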

How the data were processed

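The authors called broad peaks on 1 ATAC library with MACS 2.2.7.1, with no control library, in single-end mode (a tag shift of -100 bp, an extension to 200 bp, and q thresholds of 0.05 and 0.1), per the file headers. The genome size given was 1870000000 bp, and 22188172 of 31532245 tags remained after duplicates were dropped. The deposited columns used were the pileup signal in tags, the fold (a ratio to local background), and the −log10 q-value; local background was computed as (pileup + 1)/fold - 1. These are the authors' values for each peak. GRCh38 and mm10 are named without a role per the submitters' processing notes. Peaks covered 65.2% of RefSeq starts in the GRCh38.p14 tables, and at most 3.98% after moving every peak by 2.5 to 50 kb in either direction, so coordinates are given as GRCh38. A peak was placed by an overlap of at least 1 bp. For a gene with several RefSeq starts the outermost was used. Values were computed in Python 3.11.15 with pandas 2.3.3, and the placement was tested on simulated data. All 9 genes are named; from each pathway list, genes without an end peak and the 3 highest are named, and neighbouring genes only where a peak counted for an adhesion gene touched them. RELA, NFKB1, TNFRSF1A and the single markers of other cell types were named after their values were seen. 1 planned gene in each of 2 lists is not reported here. The genes and lists were chosen with earlier results of these data known. With 1 library there is no profile over samples, so no gene is named for likeness of pattern.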

Additional observations from a re-analysis of the deposited data

How the results depend on the processing

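Of 36 alternative values for the counts above, 32 stayed within 1.5-fold and 4 moved, all with peaks of at least 4-fold only. That filter left 3 of the 9 genes with an end peak (ICAM3, ALCAM and CD99, against 56.0% of all protein-coding genes), 18 peaks in the windows in place of 56, 1 gene above the median peak number of similar-length genes in place of 5, and 23 of the 43 pathway genes with an end peak (53.5%) in place of 42. With an equal number of peaks chosen by pileup, the same 6 genes had an end peak, beside 65.6% of all protein-coding genes. The same 6 had one with −log10 q of at least 5 (66.7% of all protein-coding genes). So they did with end windows of 500 bp (69.2%) and with an overlap of at least 200 bp (71.5%). With end windows of 2500 bp all 9 had one, since the nearest peaks of VCAM1 and SELE and the F5 peak beside SELP came inside the window; the share of all protein-coding genes was then 79.2%. Counting the RefSeq start only gave 4 genes, beside 72.0% of protein-coding genes with a start. This setting, the pileup filter and the settings without peaks at starts were chosen after seeing the data. Depth limits the genes that lack peaks: accessibility below about the lowest pileup called, 8.0 tags, could not be detected at any gene. Where the local background was higher, as at ICAM1, a peak needed more tags to reach the same fold, so the limit there was higher. No paired analysis was possible because the ATAC data are 1 library and no comparison between groups was made.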
